A study of Mus musculus with 15 samples.

Results

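Foxp3 and 7 other genes that mark regulatory T (Treg) cells (Nrp1, Lrrc32, Gpr83, Capg, Swap70, Ecm1 and Plagl1) were followed in splenic CD4+CD25+ cells of mice that lacked Helios, Eos or both. The genes were picked by symbol from the platform annotation, each with the brightest probe set of its symbol. All 8 had a single probe set and all 8 lay among the 10834 genes tested, of 19938 genes with a probe set of 1 symbol. None of the 8 passed the threshold in any comparison of genotypes. The intervals of the differences say roughly how large a change could have gone unseen, from 1 spread shared by all groups.

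Treg cells restrain immune responses, and most of them arise in the thymus under the transcription factor Foxp3. Foxp3 acts in complexes with other DNA-binding proteins. Helios (Ikzf2) and Eos (Ikzf4) belong to the Ikaros family of zinc finger transcription factors and are abundant in Treg cells, where Eos is known as a Foxp3 partner in gene silencing. The other 7 genes are known from comparisons of Treg with conventional CD4 T cells, where their transcripts are higher in Treg cells. They serve as a transcript signature of Treg identity and cover a transcription factor, surface receptors, actin regulators and a secreted protein.

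RNA was hybridised to 15 single-colour Affymetrix mouse arrays in 2 sets. Set 1 held 3 arrays of Ikzf2-/-Ikzf4-/- double knockout (dKO) cells, 3 of Ikzf4-/- cells and WT arrays 1 to 3. Set 2 held 3 arrays of Ikzf2-/- cells and WT arrays 4 to 6. All groups were cells sorted as CD4+CD25+ from spleen, with no treatment named, and the labels used here give neither strain, age and sex nor the deleted exons. The labels do not say whether the arrays of a group stem from different mice, so the p-values speak only of array-to-array spread, part of which may be technical. Values are log2 signals after robust multi-array averaging (RMA), which has no true zero and gives levels that were compared only within a gene. Both sets appear to have been normalized separately, so each knockout was set against the WT arrays of its own set.

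The promoters of the genes are shown first, because Helios and Eos are DNA-binding repressors and the windows let a reader see which members carry the short core that Ikaros family fingers recognise. RefSeq windows of 300 bases around the annotated start (GRCm38.p6, on the strand of the gene) were found for 7 of the 8 members, 8 windows in all since Foxp3 had 2 starts. Lrrc32 was not matched. The letters TGGGAA, on either strand, were in 4 of the 8 windows, and in 25.6% of 32851 windows of all genes. They were in the first Foxp3 window and in those of Gpr83, Capg and Ecm1. The windows of Foxp3, Gpr83 and Ecm1 are printed as those of the master factor and of the pair of members that stood lowest in dKO cells, with the core in capitals (TTCCCA is the core on the other strand).
Foxp3, chrX:7579426-7579725, plus strand: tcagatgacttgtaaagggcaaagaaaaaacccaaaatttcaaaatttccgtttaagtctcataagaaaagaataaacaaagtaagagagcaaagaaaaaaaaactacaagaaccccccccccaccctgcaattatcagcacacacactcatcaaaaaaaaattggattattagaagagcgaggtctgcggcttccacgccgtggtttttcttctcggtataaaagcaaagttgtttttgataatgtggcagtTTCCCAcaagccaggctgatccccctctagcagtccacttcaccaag
Gpr83, chr9:14859960-14860259, plus strand: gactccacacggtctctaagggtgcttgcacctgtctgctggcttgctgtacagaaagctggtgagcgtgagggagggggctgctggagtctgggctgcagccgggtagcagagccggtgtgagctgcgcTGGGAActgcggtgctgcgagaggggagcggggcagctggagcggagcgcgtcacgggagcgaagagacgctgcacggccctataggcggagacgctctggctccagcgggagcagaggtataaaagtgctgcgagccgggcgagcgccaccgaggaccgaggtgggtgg
Ecm1, chr3:95739520-95739819, minus strand: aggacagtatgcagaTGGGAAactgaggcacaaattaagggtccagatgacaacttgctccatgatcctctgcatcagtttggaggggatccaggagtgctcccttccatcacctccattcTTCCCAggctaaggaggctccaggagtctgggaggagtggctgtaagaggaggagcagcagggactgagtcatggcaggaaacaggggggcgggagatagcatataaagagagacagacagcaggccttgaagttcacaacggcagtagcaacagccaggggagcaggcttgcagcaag
Counted from the annotated start, the match began at position 4 in Foxp3, at -120 in Gpr83, and at -235 and -129 in Ecm1. The Capg window held the core at -138 and -58. The forkhead letters GTAAACA were in 1 member window, that of Swap70 at -107, and in 3.65% of all windows. The RUNX letters TGTGGT were in the Swap70 window too, at -127, and in 16.8% of all windows. The ETS letters CCGGAAG were in none of the member windows and in 8.86% of all windows. These matches describe letters in short windows and were not tested for binding.

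The sort and the targeted genes were checked in the same arrays. Il2ra, which encodes CD25, had log2 signals of 11.00, 10.97 and 10.99 in dKO cells, between 10.99 and 11.03 in Ikzf4-/- cells, and between 10.87 and 11.10 in WT 1 to 3. In Ikzf2-/- cells Il2ra read 10.83, 10.23 and 10.43, against 10.80, 10.74 and 10.64 in WT 4 to 6, and the groups overlapped. The Ikzf2 probe set read 10.11, 10.16 and 10.59 in dKO cells, against 10.46, 10.74 and 10.76 in WT 1 to 3. It read 10.06, 9.14 and 9.22 in Ikzf2-/- cells, against 10.25, 10.38 and 10.38 in WT 4 to 6. The readings of Ikzf2 were lower where it was targeted, without passing limma's threshold (adjusted p = 1 in dKO and 0.0885 in Ikzf2-/-), and of these arrays only dKO 3 overlapped the WT range. Ikzf4 did not read lower where it was targeted. It read 8.07 to 8.20 in dKO cells and 8.13 to 8.22 in Ikzf4-/- cells, against 7.83 to 8.07 in WT 1 to 3. Where in these genes the probes lie was not known here, so a probe set outside the deleted part could keep its signal, and the labels are used as given.

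One array stood apart. The array Ikzf2-/- 2 was the lowest of its group for 8 of the 8 genes and lay below all of WT 4 to 6 for 6 of them (Foxp3, Nrp1, Gpr83, Swap70, Ecm1 and Plagl1). The mean log2 signal over the 8 genes was 8.76, 8.05 and 8.70 in Ikzf2-/- cells, against 8.42, 8.61 and 8.46 in WT 4 to 6. Among all genes tested, 40.2% lay below and 31.8% above the range of WT 4 to 6 on this array. A large part lay outside on Ikzf2-/- 3 too, with 25.2% below and 46.6% above. The array weight of Ikzf2-/- 2 in limma, a measure of how closely an array follows its group, was 0.126, the lowest of the 15. That of Ikzf2-/- 3 was 0.363. Of 5 T cell markers Ikzf2-/- 2 was below all of WT 4 to 6 for Cd3e, Cd4 and Cd5, among them for Cd28 and above them for Cd3g. Cd4 read 8.78, against 9.42 to 9.45 in WT 4 to 6, and Cd3g read 11.26, against 11.05 to 11.19. Of the CD8 T cell markers, Cd8b1 read 7.31, against 6.06 to 6.12, while Cd8a, below the filter, read 4.68, against 4.34 to 4.74. The part of other cells in its values was not tested, and in these mixed-cell RNA samples fewer Treg cells and less RNA per cell cannot be told apart. In set 1, WT 2 was the highest of WT 1 to 3 for 8 of the 8 genes, with an array weight of 1.91.

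Markers of other blood cells also differed between arrays. The mean log2 signal of 8 B cell markers (of 9 listed) lay between 4.81 and 7.56 in Ikzf2-/- cells, against 4.96 to 5.16 in WT 4 to 6, with the highest value on Ikzf2-/- 3. In set 1 it lay between 4.33 and 4.37 in dKO cells and between 4.31 and 4.46 in Ikzf4-/- cells, against 4.39 to 6.60 in WT cells, with the highest value on WT 1. The mean of 6 neutrophil markers (of 6) was 6.92, 6.13 and 9.79 in Ikzf2-/- cells, against 5.68, 5.01 and 5.71 in WT 4 to 6. It lay between 5.30 and 6.06 in dKO cells and between 4.39 and 5.23 in Ikzf4-/- cells, against 7.36, 4.43 and 4.95 in WT 1 to 3. Ikzf2-/- 3 and WT 1 thus carried the most B cell and neutrophil signal of their sets. Without WT 1, Ecm1 in dKO against WT was -0.56 and Gpr83 -0.50 (-0.46 and -0.39 with it), and in Ikzf4-/- against WT Ecm1 was -0.33 and Gpr83 -0.18 (-0.23 and -0.07 with it). The values that turned sign without WT 1 lay near 0. Nrp1 was -0.01 in dKO and -0.06 in Ikzf4-/-, Capg 0.02 and Lrrc32 -0.0079 in Ikzf4-/-.

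**Figure D1:**
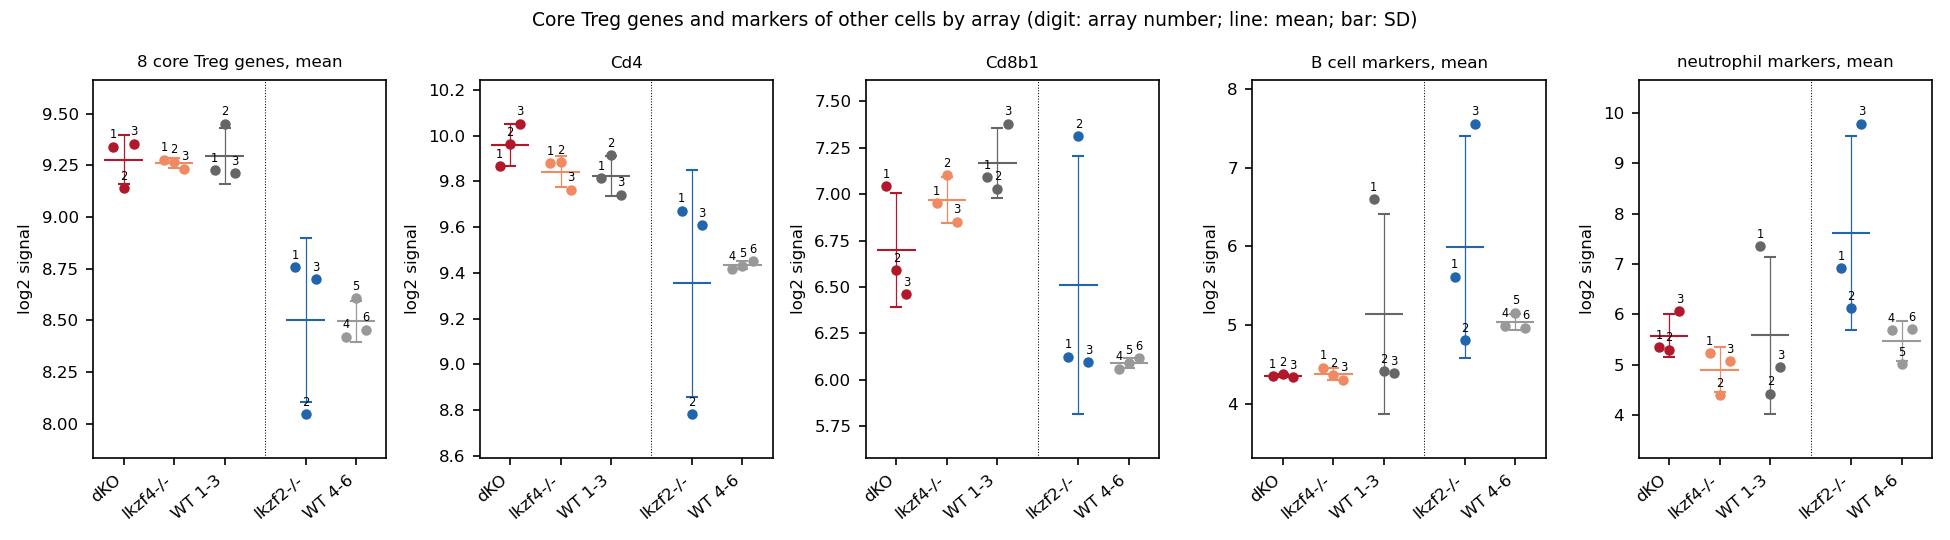
Log2 signal on each of the 15 arrays of the mean of the 8 Treg genes, Cd4, Cd8b1 and the means of the B cell and neutrophil markers. Digits are array numbers, horizontal lines are group means, bars are SD (n = 3) and the dotted line parts the 2 array sets; Ikzf2-/- 2 is lowest for the Treg genes (8.05) and Cd4 (8.78), and Ikzf2-/- 3 is highest for B cell (7.56) and neutrophil (9.79) markers.

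Foxp3, the factor that sets up and keeps the Treg programme, did not differ between the genotypes of set 1 beyond the spread of the arrays. It read 11.07, 10.85 and 11.16 in dKO cells and 10.97, 10.93 and 11.02 in Ikzf4-/- cells, against 10.99, 11.01 and 10.85 in WT 1 to 3. The groups overlapped, and the order of the means, 11.03 ± 0.16 in dKO, 10.98 ± 0.05 in Ikzf4-/- and 10.95 ± 0.09 in WT (SD, n = 3 each), did not separate neighbours beyond their spread. The limma log2 change was 0.08 (SE 0.12) in dKO against WT, a fold of 1.05 with a 95% interval of 0.888 to 1.25. In Ikzf4-/- against WT it was 0.03 (SE 0.12), a fold of 1.02 with an interval of 0.857 to 1.21. In dKO against Ikzf4-/- it was 0.05 (SE 0.12), with an interval of 0.873 to 1.23 on the fold scale.

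In set 2 Foxp3 read 10.58, 10.10 and 10.34 in Ikzf2-/- cells, against 10.33, 10.50 and 10.43 in WT 4 to 6. Ikzf2-/- 1 was above and Ikzf2-/- 2 below all WT arrays, so the genotypes overlapped. The log2 change was -0.08 (SE 0.12), a fold of 0.947 with a 95% interval of 0.798 to 1.12, and with each array left out in turn it lay between -0.20 (without Ikzf2-/- 1, adjusted p = 0.314) and 0.04 (without Ikzf2-/- 2). Foxp3 had the narrowest intervals of the 8 genes, with a half-width of 0.25 on the log2 scale in these 4 comparisons. Gpr83 had the widest, at 0.56. All intervals rest on 1 spread shared by the groups, although the Ikzf2-/- arrays varied more. Their median SD over all genes was 0.19, against 0.09 to 0.11 in the other groups. Fitted with the arrays of 1 set alone, the SE of Foxp3 was 0.09 in dKO against WT and 0.14 in Ikzf2-/- against WT. The intervals may thus be too wide in set 1 and too narrow in Ikzf2-/- for some genes.

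**Figure D2:**
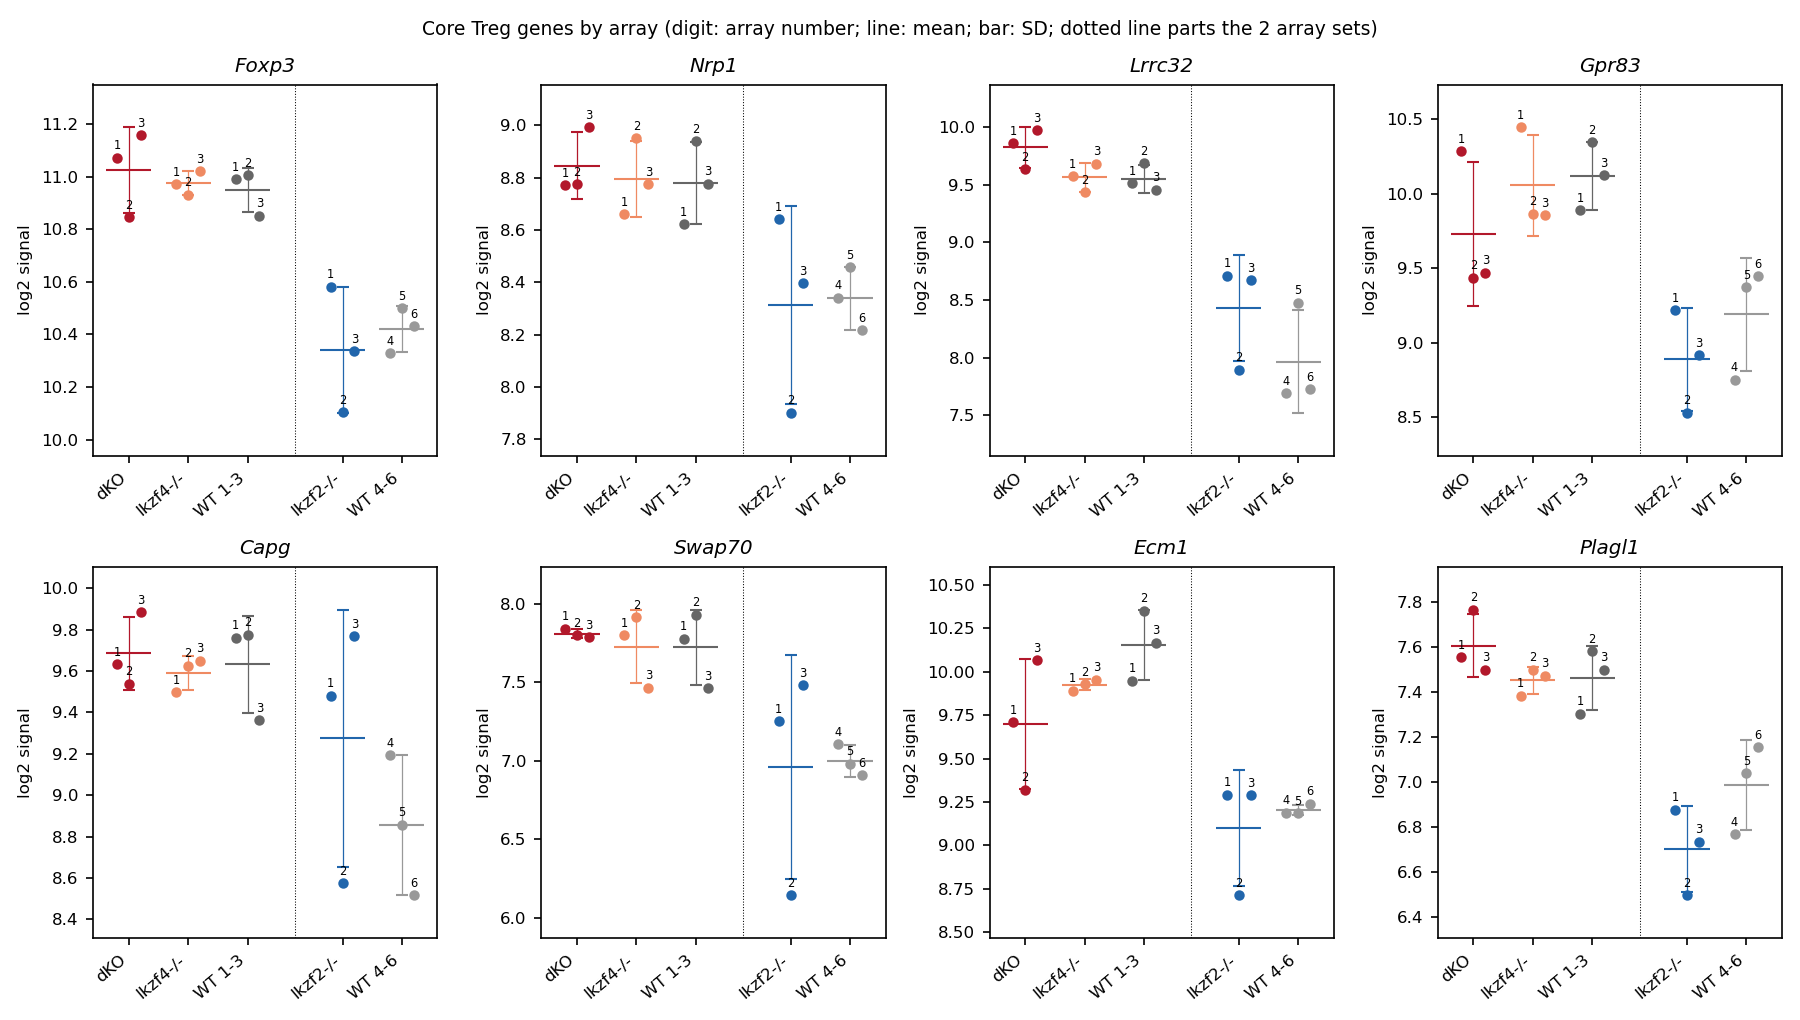
Log2 signal of each of the 8 genes on each array, with 1 panel per gene. Digits are array numbers, horizontal lines are group means, bars are SD (n = 3) and the dotted line parts the 2 array sets, between which levels are not comparable; in every panel the knockout groups overlap the WT arrays of their set.

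Plagl1, an imprinted zinc finger transcription factor that restrains cell growth, overlapped between the genotypes of set 1. It read 7.55, 7.77 and 7.50 in dKO cells and 7.38, 7.50 and 7.47 in Ikzf4-/- cells, against 7.30, 7.58 and 7.50 in WT 1 to 3. The log2 change was 0.15 (SE 0.12) in dKO and -0.01 (SE 0.12) in Ikzf4-/-, both with adjusted p = 1 in limma. In set 2 it read 6.88, 6.50 and 6.74 in Ikzf2-/- cells, against 6.77, 7.04 and 7.16 in WT 4 to 6, where only Ikzf2-/- 1 and WT 4 overlapped. The log2 change was -0.28 (SE 0.12, adjusted p = 0.271, unadjusted p = 0.0374 in limma), a fold of 0.822 with a 95% interval of 0.684 to 0.987. With each array left out in turn it lay between -0.39 (without WT 4, adjusted p = 0.175) and -0.18 (without Ikzf2-/- 2, adjusted p = 0.382).

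Nrp1 encodes neuropilin-1, a co-receptor for semaphorins and VEGF that marks Treg cells of thymic origin. It read 8.77, 8.77 and 8.99 in dKO cells and 8.66, 8.95 and 8.78 in Ikzf4-/- cells, against 8.62, 8.94 and 8.78 in WT 1 to 3. The means lay within 0.07 of each other on the log2 scale, less than the SD of any of the groups (0.13, 0.15 and 0.16). In Ikzf2-/- cells it read 8.64, 7.90 and 8.40, against 8.34, 8.46 and 8.22 in WT 4 to 6. Ikzf2-/- 1 was above and Ikzf2-/- 2 below all WT arrays, and the log2 change of -0.03 (SE 0.16) was -0.19 without Ikzf2-/- 1 and 0.18 (adjusted p = 0.389) without Ikzf2-/- 2.

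Lrrc32 encodes GARP, the surface protein that holds latent TGF-beta on activated Treg cells. It read 9.86, 9.63 and 9.98 in dKO cells and 9.58, 9.43 and 9.68 in Ikzf4-/- cells, against 9.51, 9.69 and 9.46 in WT 1 to 3. The dKO arrays 1 and 3 lay above all WT arrays and dKO 2 among them, with a log2 change of 0.27 (SE 0.22, adjusted p = 1 in limma) and a 95% interval of 0.867 to 1.68 on the fold scale. In set 2 Lrrc32 read 8.71, 7.90 and 8.67 in Ikzf2-/- cells, against 7.69, 8.48 and 7.73 in WT 4 to 6. Ikzf2-/- 1 and 3 were above all WT arrays, and Ikzf2-/- 2 was among them. The log2 change of 0.46 (SE 0.22, adjusted p = 0.323, unadjusted p = 0.0566 in limma) had a 95% interval of 0.990 to 1.91 on the fold scale.

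Gpr83 encodes a G protein-coupled receptor that is abundant on Treg cells. It read 10.28, 9.44 and 9.47 in dKO cells and 10.44, 9.87 and 9.85 in Ikzf4-/- cells, against 9.89, 10.35 and 10.12 in WT 1 to 3. The dKO arrays 2 and 3 were below all WT arrays and dKO 1 was among them. The log2 change was -0.39 (SE 0.26, adjusted p = 1 in limma), a fold of 0.763 with a 95% interval of 0.518 to 1.12, and it was -0.67 without dKO 1 (adjusted p = 0.854), -0.24 without dKO 2 and -0.26 without dKO 3. The dKO arrays also differed in the Y-linked gene Eif2s3y, which read 3.09, 7.94 and 8.81 on dKO 1, 2 and 3. On the arrays of set 2 Eif2s3y lay between 2.87 and 3.01. Its signal was thus uneven between dKO and the other groups of set 1, and between the WT sets. Its part in the values of Gpr83 or of any other gene was not tested. The other set 1 arrays with Eif2s3y above 8 were Ikzf4-/- 3 and WT 3, and Gpr83 read 9.85 and 10.12 there. In set 2 Gpr83 read 9.22, 8.53 and 8.92 in Ikzf2-/- cells, against 8.75, 9.37 and 9.44 in WT 4 to 6. The change was -0.30 on the log2 scale (SE 0.26), and with each array left out in turn it lay between -0.52 (without WT 4) and -0.12 (without Ikzf2-/- 2).

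Capg encodes an actin filament capping protein of the gelsolin family, which macrophages also make in quantity. It read 9.63, 9.54 and 9.88 in dKO cells and 9.50, 9.63 and 9.65 in Ikzf4-/- cells, against 9.76, 9.78 and 9.36 in WT 1 to 3. These groups lay over each other, with log2 changes of 0.05 (SE 0.25) in dKO and -0.04 (SE 0.25) in Ikzf4-/-. In set 2 Capg read 9.48, 8.57 and 9.77 in Ikzf2-/- cells, against 9.19, 8.86 and 8.52 in WT 4 to 6. Ikzf2-/- 1 and 3 were above all WT arrays, while Ikzf2-/- 2 was near the lowest of them. The log2 change was 0.42 (SE 0.25, adjusted p = 0.431 in limma), a fold of 1.34 with a 95% interval of 0.924 to 1.93. The mean of 7 macrophage and dendritic cell markers, 3 of them past the filter, was 5.37, 5.07 and 5.55 in Ikzf2-/- cells. It was 4.91, 4.81 and 5.08 in WT 4 to 6. The part of such cells in the Capg values was not tested.

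The set 2 values of Lrrc32 and Capg turned on single arrays. Without Ikzf2-/- 2 the log2 change of Capg was 0.77 (adjusted p = 0.0563) and that of Lrrc32 0.73 (adjusted p = 0.0730), and neither passed the threshold. Without Ikzf2-/- 3, the array with the most neutrophil and B cell signal, they were 0.17 and 0.34, and without Ikzf2-/- 1 they were 0.31 and 0.32. In set 1, WT 1 carried such signal too, with a neutrophil marker mean of 7.36, against 9.79 on Ikzf2-/- 3. Capg and Lrrc32 read 9.76 and 9.51 on WT 1, 9.78 and 9.69 on WT 2, and 9.36 and 9.46 on WT 3. Neither the marker signal nor the low array was tested as a source of these differences.

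Swap70 encodes a signalling protein that binds Rac and actin filaments and was first studied in B cells. It read 7.84, 7.80 and 7.79 in dKO cells and 7.80, 7.91 and 7.47 in Ikzf4-/- cells, against 7.78, 7.93 and 7.46 in WT 1 to 3, so the dKO arrays lay inside the WT range. In set 2 it read 7.25, 6.15 and 7.48 in Ikzf2-/- cells, against 7.11, 6.98 and 6.91 in WT 4 to 6. The Ikzf2-/- arrays surrounded the WT arrays on both sides, with the largest SD of any of the 8 genes in any group (0.72). The log2 change of -0.04 (SE 0.26) was 0.37 (adjusted p = 0.155 in limma) without Ikzf2-/- 2 and -0.30 without Ikzf2-/- 3.

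Ecm1 encodes a secreted extracellular matrix protein, known in mice for its part in the exit of Th2 cells from lymph nodes. It read 9.71, 9.32 and 10.07 in dKO cells and 9.89, 9.93 and 9.95 in Ikzf4-/- cells, against 9.95, 10.35 and 10.17 in WT 1 to 3. The dKO arrays 1 and 2 were below all WT arrays and dKO 3 was among them. The Ikzf4-/- arrays lay close together, with Ikzf4-/- 1 and 2 just below all WT arrays and Ikzf4-/- 3 just inside their lower edge. The log2 change in dKO against WT was -0.46 (SE 0.18), a fold of 0.729 with a 95% interval of 0.559 to 0.951. It was the sole member with an unadjusted p under 0.05 in this comparison (adjusted p = 1, unadjusted p = 0.0233 in limma). Without dKO 2 the change was -0.27, and without dKO 3 it was -0.64 (adjusted p = 0.803). Without WT 2, the highest of WT 1 to 3, it was -0.36 (unadjusted p = 0.0955 in limma). In Ikzf4-/- against WT the change was -0.23 (SE 0.18) and in dKO against Ikzf4-/- -0.23 (SE 0.18), both with adjusted p = 1. In set 2 Ecm1 read 9.29, 8.71 and 9.29 in Ikzf2-/- cells, against 9.19, 9.18 and 9.24 in WT 4 to 6, where Ikzf2-/- 1 and 3 were just above and Ikzf2-/- 2 well below the WT arrays. The log2 change was -0.10 (SE 0.18), -0.20 without Ikzf2-/- 1 and 0.09 without Ikzf2-/- 2.

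Counted together, 0 of the 8 genes were called in dKO against WT, where 0.0646% of 10834 genes were (limma, adjusted p under 0.05), and 1 of 8 had an unadjusted p under 0.05, as had 4.32% of all genes. In Ikzf4-/- against WT, 0 of 8 were called against 0% of all genes, and 0 of 8 had an unadjusted p under 0.05, as had 2.15% of all genes. In Ikzf2-/- against WT, 0 of 8 were called against 0.0646% of all genes, and 1 of 8, Plagl1, had an unadjusted p under 0.05, as had 16.4% of all genes. In dKO against Ikzf4-/-, 0 of 8 were called against 0.0277% of all genes, and 0 of 8 had an unadjusted p under 0.05, as had 3.49% of all genes. With so few calls among all genes, a count of 0 among 8 genes lies at the background and says little about these genes, and so do the counts at an unadjusted p.

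The median log2 change of the 8 genes was 0.07 in dKO, where all genes tested had a median of 0.0046, and 6 were positive and 2 negative. In Ikzf4-/- it was -0.0034, where all genes had 0.0066, with 4 positive and 4 negative. In Ikzf2-/- it was -0.06, where all genes had 0.02, with 2 positive and 6 negative. In dKO against Ikzf4-/- it was 0.07, where all genes had -0.0011, with 6 positive and 2 negative. The comparisons of dKO and of Ikzf4-/- share the arrays WT 1 to 3. In each of the 4 comparisons the groups overlapped for 8 of the 8 genes. Over all genes, they did not overlap for 9.52% in dKO against WT and 6.52% in Ikzf4-/- against WT. The shares were 16.2% in Ikzf2-/- against WT and 8.27% in dKO against Ikzf4-/-. A count of 0 among 8 genes lies near these shares and says little about these genes.

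**Figure D3:**
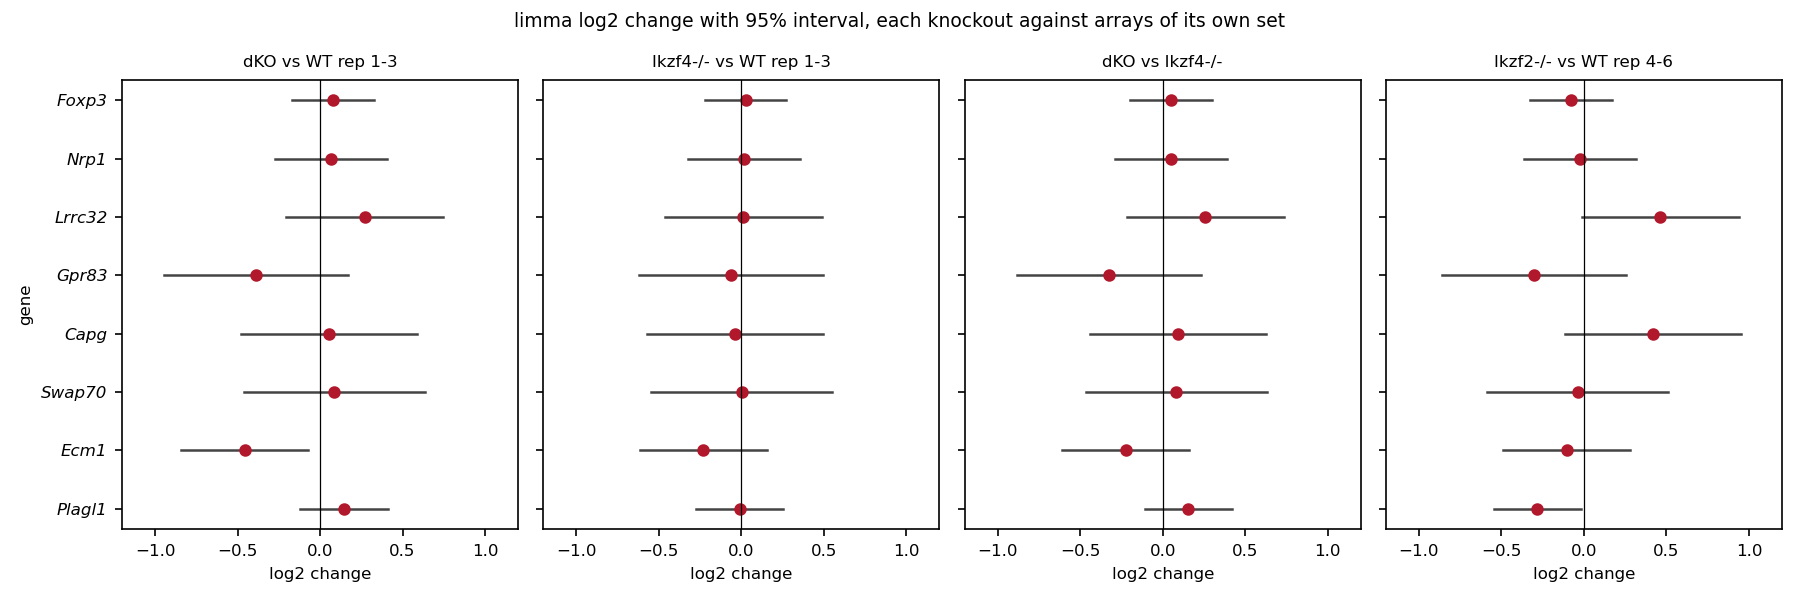
Log2 change of each gene (points) with its 95% interval (lines) from limma in the 4 comparisons. The intervals cross 0 except for Ecm1 in dKO against WT (-0.84 to -0.07) and Plagl1 in Ikzf2-/- against WT (-0.55 to -0.02), neither of which passed the threshold after adjustment over all genes.

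Whether loss of Helios had another effect where Eos was also missing was tested as the difference between dKO minus Ikzf4-/- and Ikzf2-/- minus WT 4 to 6. Of the 8 genes 0 were called, against 0% of all genes, and 1 had an unadjusted p under 0.05, as had 6.29% of all genes. That was Plagl1, with log2 0.15 for dKO minus Ikzf4-/- and -0.28 for Ikzf2-/- minus WT, a difference of 0.44 (SE 0.17, adjusted p = 0.767, unadjusted p = 0.0248 in limma). With each array left out in turn the difference lay between 0.34 (without Ikzf2-/- 2) and 0.55 (without WT 4). For Foxp3 the difference was 0.13 (SE 0.16), with a 95% interval of 0.858 to 1.40 on the fold scale.

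The genes were also compared as deviations of each array from the WT mean of its set. Among the dKO arrays, dKO 3 was above all WT arrays for 4 genes (Foxp3, Nrp1, Lrrc32 and Capg) and below them for Gpr83, where 22.8% of all genes lay above and 26.2% below on that array. The array dKO 2 was below them for 3 (Foxp3, Gpr83 and Ecm1) and above them for Plagl1, where 24.8% of all genes lay below and 25.8% above. In Ikzf2-/- cells array 1 was above all WT arrays for 6 genes, array 3 was above for 4 and array 2 for 0, where 36.9%, 46.6% and 31.8% of all genes were above on arrays 1, 3 and 2. The 4 genes on array 3 thus lie near its background.

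**Figure D4:**
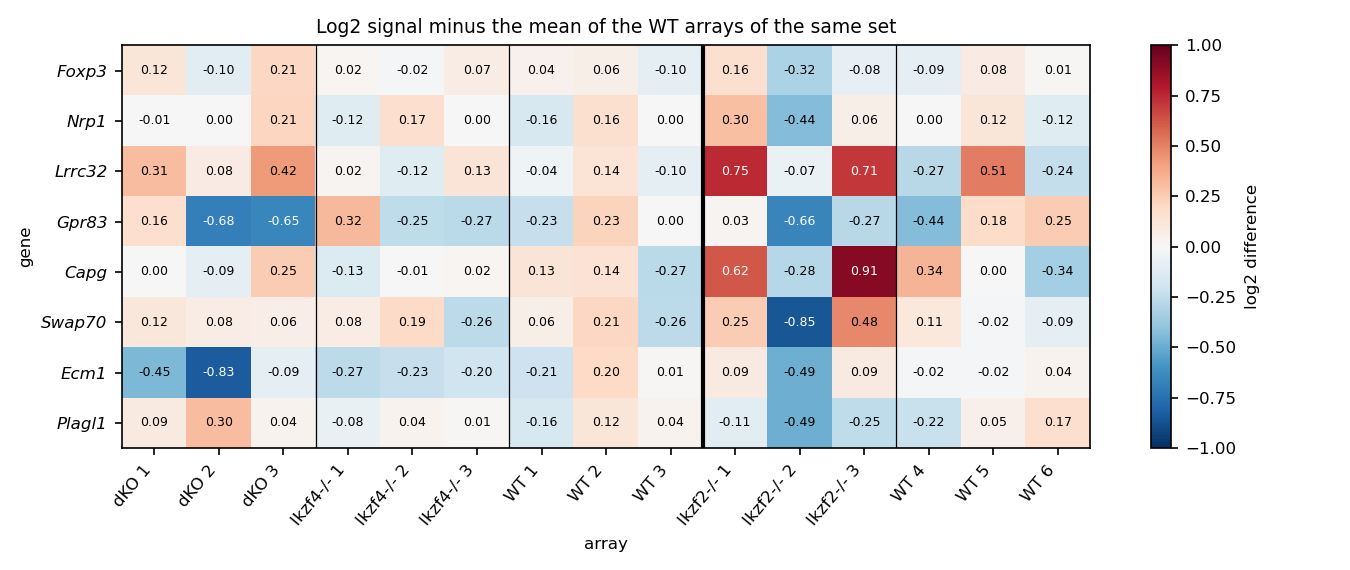
Log2 signal of each gene (rows) on each array (columns) minus the mean of the 3 WT arrays of the same set; red is above and blue below that mean, and the thick line parts the sets. The column of Ikzf2-/- 2 is negative for 8 of 8 genes, from -0.07 (Lrrc32) to -0.85 (Swap70), while dKO 2 reaches -0.83 for Ecm1 and -0.68 for Gpr83.

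Within groups, the 8 genes had a larger median spread than genes at large. The median SD over the 8 genes was 0.17 in dKO, 0.10 in Ikzf4-/- and 0.18 in WT 1 to 3, where the median over all genes was 0.10, 0.09 and 0.10. It was 0.36 in Ikzf2-/- and 0.16 in WT 4 to 6, where the median over all genes was 0.19 and 0.11. Genes of like signal level were not compared, and the part of signal level in this spread was not tested. The genes moved together on single arrays, being lowest of their group on Ikzf2-/- 2 and highest on WT 2 for 8 of 8. Over the 28 pairs of members, Pearson's r across the 15 arrays, each gene centred in its set, lay between -0.18 and 0.75 with a median of 0.41. The highest was Capg with Swap70, at 0.75, and 9 pairs exceeded 0.5. Without Ikzf2-/- 2 the median was 0.14, 4 pairs exceeded 0.5 and 9 lay below 0, against 2 below 0 with it. These correlations are descriptions with no test, since arrays of a set share normalization. Pairs of other genes were not set beside them, so they do not show that these genes vary together more than others.

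The genes whose pattern over the 15 arrays was most like that of Foxp3, by Pearson's r after centring in each set, were Gabpb2 (0.853), Izumo1r (0.851), Pisd-ps2 (0.845), Galnt6 (0.844) and Mbd6 (0.839). Izumo1r encodes folate receptor 4, itself a known Treg surface marker, while the others are on none of the gene lists used here. Without Ikzf2-/- 2 these 5 values lay between 0.704 and 0.746. Nrp1 was most like Itgav (0.914) and Fnbp1 (0.898), and Lrrc32 most like Rcan3 (0.893) and Dnase2a (0.891). Capg was closest to Osbpl3 (0.967) and Limd1 (0.932), and these held at 0.968 and 0.915 without Ikzf2-/- 2. Swap70 was closest to Slu7 (0.968) and Tomm22 (0.963), Gpr83 to Itfg2 and Slc2a9 (0.836 each), Ecm1 to BC055324 (0.876) and Dtd1 (0.857), and Plagl1 to Luc7l2 (0.858) and Slc30a7 (0.840). All these values are the highest of a search among 10834 genes over 15 arrays, so they are large by selection. None was tested, and they do not show that the genes are regulated together.

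Between the sets, the signals of the 8 genes were lower in WT 4 to 6 than in WT 1 to 3, all of the same genotype. The log2 difference lay between -0.44 (Nrp1) and -1.59 (Lrrc32), with -0.53 for Foxp3, where the median over all genes tested was -0.39. With arrays shifted to equal medians, Foxp3 differed by -0.49 and Lrrc32 by -1.54, where the median of all genes was -0.34. In limma 8 of 8 passed the threshold across the sets (adjusted p between 6.16e-05 and 0.0251), where 64.1% of all genes did. Both sets appear to have been normalized separately, so a difference between the cells and one of normalization cannot be told apart here. For each of the 8 genes, the difference between the WT sets exceeds the genotype differences above that were fitted with all arrays. With single arrays left out this does not hold for Plagl1. It differed by -0.47 between the WT sets, and its difference of the Helios effects was 0.55 without WT 4. Eif2s3y differed too, with 8.17 on WT 3, 3.085 and 3.063 on WT 1 and 2, and 2.89 to 2.93 on WT 4 to 6. Its part in the differences between the sets was not tested.

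The partners and regulators of Foxp3 gave the wider context. Of 28 such genes, 28 were measured and 0 were called in each of the 5 comparisons (limma). At an unadjusted p under 0.05 there were 0 in dKO against WT and 0 in Ikzf4-/- against WT. Their median log2 change was -0.05 in dKO, -0.02 in Ikzf4-/- and -0.0075 in Ikzf2-/-, beside 0.0046, 0.0066 and 0.02 for all genes.

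In Ikzf2-/- against WT, 3 of the 28 had an unadjusted p under 0.05, a smaller share than the 16.4% of all genes, so the values that follow describe these genes and show nothing about the list. Ezh2, which encodes the methyltransferase of Polycomb repressive complexes, read 8.52, 8.63 and 8.40 in Ikzf2-/- cells, against 8.21, 8.21 and 7.96 in WT 4 to 6. The groups did not overlap, and the log2 change was 0.39 (SE 0.10, adjusted p = 0.0917). Satb1, a chromatin organiser that Foxp3 is known to repress, read 9.60, 9.56 and 9.55 in Ikzf2-/- cells, against 9.73, 9.96 and 10.05 in WT 4 to 6, again without overlap. Its log2 change was -0.34 (SE 0.12, adjusted p = 0.169), and in dKO against WT it was -0.24 (SE 0.12, adjusted p = 1). Foxp1, a forkhead relative of Foxp3 that was named after its values were seen, had a log2 change of -0.23 (SE 0.10, adjusted p = 0.257) in Ikzf2-/-. Bach2, a repressor that keeps T cells quiescent, had a log2 change of -0.33 (SE 0.17, adjusted p = 1) in dKO.

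Of 17 other Treg signature genes, 17 were measured and 0 were called in each of the 5 comparisons (limma), with 1, 0, 3, 2 and 0 at an unadjusted p under 0.05 in dKO against WT, Ikzf4-/- against WT, Ikzf2-/- against WT, dKO against Ikzf4-/- and the difference of the Helios effects. Over all genes the shares at that p were 4.32%, 2.15%, 16.4%, 3.49% and 6.29% in the same order. The 3 of 17 in Ikzf2-/- thus lie near the background, and Ikzf2 itself, the targeted gene, is among the 3. The list also holds Ikzf4, the gene targeted in Ikzf4-/- and dKO cells. The median log2 change of the 17 was 0.07 in dKO, 0.0093 in Ikzf4-/- and -0.07 in Ikzf2-/-. Socs2, a suppressor of cytokine signalling, had the smallest p of them in dKO and in Ikzf2-/- against WT. It read 8.63, 8.52 and 8.61 in dKO cells and 8.21, 8.11 and 8.03 in Ikzf4-/- cells, against 8.13, 8.16 and 7.85 in WT 1 to 3. It read 7.91, 7.72 and 8.17 in Ikzf2-/- cells, against 7.44, 7.20 and 7.18 in WT 4 to 6. All Socs2 arrays of dKO and of Ikzf2-/- were above the WT arrays of their set, with log2 changes of 0.54 (SE 0.12, adjusted p = 0.254) and 0.66 (SE 0.12, adjusted p = 0.0661).

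Dusp4, a phosphatase of MAP kinases, read 7.28, 6.79 and 7.40 in Ikzf2-/- cells, against 6.46, 6.48 and 6.34 in WT 4 to 6, with a log2 change of 0.73 (SE 0.14, adjusted p = 0.0698). In dKO against Ikzf4-/- its log2 change was 0.32 (SE 0.14, adjusted p = 1). Ctla4, the inhibitory receptor of Treg cells, had a log2 change of 0.20 (SE 0.09, adjusted p = 1) in dKO and 0.03 (SE 0.09) in Ikzf2-/-. The array Ikzf2-/- 2 was the lowest of its group for Socs2, Dusp4 and Ctla4, as for the 8 core genes, but still lay above all of WT 4 to 6 for Socs2 and Dusp4.

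Genes known to be lower in Treg than in conventional CD4 T cells were measured for 6 of 10, with 0 called in each of the 5 comparisons and 1, 1, 1, 0 and 0 at an unadjusted p under 0.05 in the same order (limma). The shares of all genes at that p are those given for the signature genes. Their median log2 change was 0.13 in dKO, 0.10 in Ikzf4-/- and 0.10 in Ikzf2-/-, with 3, 5 and 4 of the 6 positive. Il7r, the IL-7 receptor chain that is low on most Treg cells, had log2 changes of 0.34 (SE 0.23, adjusted p = 1) in dKO and 0.27 (SE 0.23, adjusted p = 1) in Ikzf4-/-. Igfbp4, an IGF-binding protein, had 0.59 (SE 0.31, adjusted p = 0.379) in Ikzf2-/-. Treml2, a receptor of the TREM family, read 8.85, 8.83 and 8.50 in dKO cells and 8.95, 8.84 and 8.81 in Ikzf4-/- cells, against 9.09, 9.06 and 9.11 in WT 1 to 3. Both knockouts lay below WT without overlap, with log2 changes of -0.36 (SE 0.10, adjusted p = 0.660) and -0.22 (SE 0.10, adjusted p = 1). In Ikzf2-/- cells Actn1, which encodes an actin crosslinker, read 7.74, 7.09 and 7.95, against 8.03, 8.06 and 8.11 in WT 4 to 6. Its change was -0.48 on the log2 scale (SE 0.18, adjusted p = 0.210). The low reading of Actn1 again included Ikzf2-/- 2.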

How the data were processed

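RNA of sorted splenic CD4+CD25+ cells was measured on 15 Affymetrix arrays, from 15 ng of total RNA each, amplified with a NuGEN kit and labelled with biotin, per the labels' protocols. The log2 signals deposited by the authors were made with Affymetrix Expression Console 1.3.1 and RMA, per the submitters' processing notes. This procedure corrects background, makes the arrays' distributions equal and summarises probes, and it compresses changes of dim genes. No scanner files were used, so this was not repeated. No label states the sets. The division was given with the choice of genes and comparisons, and it follows the pattern of equal values. Pairs of arrays shared exactly equal values in 2286 probe sets on average within set 1, 34.4 within set 2 and 0.0741 across sets. No 2 arrays were identical.

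Of 35556 probe sets, 21789 had 1 symbol (21698 updated through Entrez identifiers to GRCm38.p6), 1621 had several and 12146 were not listed. The brightest probe set stood for a gene. Genes were tested where any genotype mean exceeded log2 4.96, the median of the probe set means. For the array design no genome build is given here. Promoters came from RefSeq (GRCm38.p6).

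All arrays entered a limma 3.58.1 fit (R 4.3.3, lmFit and eBayes, 5 cell means, 10 residual and 3.73 prior degrees of freedom), adjusted over 10834 genes by Benjamini-Hochberg at 0.05. The script was tested on simulated data. Precision is limited by how few arrays there are. The members, lists, naming rule and comparisons were chosen with earlier results of these data known. The rule named the 8 members, Il2ra, Ikzf2 and Ikzf4, any called gene of a list and up to 2 further genes with the smallest p per list and comparison. Other named genes are cell type markers, Eif2s3y (chosen after its values were seen), and the genes most like each member.

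Replicate numbers are shared within set 1. Deviations of same-numbered arrays from group means correlated at 0.43, 0.197 and 0.267 for dKO with Ikzf4-/-, at 0.135, 0.218 and 0.306 for Ikzf4-/- with WT, and at 0.0707, 0.0456 and 0.172 for dKO with WT. Arrays of different numbers were not compared in this way, so these values do not settle whether the numbers pair the arrays. A total of 27 alternatives were tried: leaving out each array, leaving out WT 1 and Ikzf2-/- 3 together (chosen after seeing the data), other filters, scalings, probe set rules, variance settings, array weights, arrays in the fit, pooled WT arrays and a replicate block.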

Additional observations from a re-analysis of the deposited data

How the results depend on the processing

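Under the 27 alternatives, 0 of the 8 genes were called in any of the 5 comparisons, and of 1056 gene values 0 passed the threshold and 75 had the other sign. The fit with a replicate block (set 1 arrays alone) called 0 members in dKO against WT, in Ikzf4-/- against WT and in dKO against Ikzf4-/-, and for Ecm1 in dKO against WT it gave -0.46 with an adjusted p of 0.537. In set 2 no replicate numbers are shared. Counts over all genes were less stable. They lay between 0 and 22 in dKO against WT (7 as reported), between 0 and 404 in Ikzf2-/- against WT (7), between 0 and 21 in dKO against Ikzf4-/- (3), between 0 and 1 in Ikzf4-/- against WT (0) and between 0 and 4 in the difference of the Helios effects (0). The 404 came without Ikzf2-/- 1, and the 22 and 21 with array weights. The cause was not tested. With all 6 WT arrays pooled, Lrrc32 in dKO against WT was 1.06 (adjusted p = 0.288), a value that mixes both array sets.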
